A study of Homo sapiens with 6 samples.

Results

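The genes described here are named as long noncoding host genes of small nucleolar RNAs (snoRNAs). They were taken by symbol, as SNHG followed by digits together with GAS5, ZFAS1, EPB41L4A-AS1, DANCR and TUG1, and the count tables listed 33 of them among 28278 gene symbols. The cells were HT29, an established human colorectal adenocarcinoma line. They were transfected with an siRNA against ALDOA (siALDOA, 3 libraries) or with a scrambled siRNA (siControl, 3 libraries), and RNA was taken 48 h later. Both groups were therefore transfected cells of the same line, and untransfected cells were not analysed here. A knockdown by siRNA is transient and partial, and each group held a single siRNA condition, so that an effect of ALDOA and an effect of the siRNA on other transcripts cannot be told apart.

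snoRNAs guide the chemical modification of ribosomal RNA. C/D box snoRNAs (SNORD) direct ribose methylation and H/ACA box snoRNAs (SNORA) direct pseudouridylation, while the related SCARNA act on spliceosomal RNA. In human cells most of them are cut out of the introns of a host gene after splicing, so that a host yields snoRNAs and a spliced RNA from the same transcript. The spliced RNAs of noncoding hosts such as GAS5 are known to be read by ribosomes and removed by nonsense-mediated decay, and several start with a run of pyrimidines like the mRNAs of ribosomal proteins. By annotation, TUG1, SNHG27 and SNHG28 held no snoRNA, so the name snoRNA host fits 30 of the 33 genes by position. GENCODE lists TUG1 as protein-coding and the others as long noncoding genes, and all 33 are called host genes here for short.

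The libraries held 27277538 to 28690395 counts with siALDOA and 31899091 to 33237914 with siControl. Ribosomal RNA genes took 7.71% to 13.1% of the siALDOA counts and 8.15% to 17.4% of the siControl counts. The target ALDOA, an enzyme of glycolysis, was at 289 ± 13.7 CPM (counts scaled by library total and TMM factor, SD, n = 3) with siALDOA and at 632 ± 38.2 CPM with siControl. Its log2 fold change was -1.13 (edgeR, SE 0.060, adjusted p = 6.95e-11). The epithelial markers EPCAM, KRT8, CDH1 and VIL1 were at 273 CPM or more in every library, and KRT20 was at 282 to 339 CPM. The intestinal markers CDX2, CDX1 and CDH17 were lower, at 10.9 to 14.8, 3.72 to 5.76 and 4.03 to 6.36 CPM. Of the markers of other cell types CD68 was the highest, at 12.7 to 15.3 CPM, which is above CDX1 and CDH17, and CD3E was at 0. The epithelial marker LGALS4 was listed at 0 in every library, and so was FBL, the methyltransferase of C/D box snoRNAs that every cell uses, so a 0 in these tables does not show that a gene was silent.

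The host genes as a group showed a median difference near 0 between siALDOA and siControl, and a single gene passed the test. Of the 33 genes, 26 passed the filter on low counts and were tested, and 1 of these 26 passed the adjusted p threshold of 0.05, the gene SNHG15, which was lower with siALDOA. Among all 15307 genes tested the share past this threshold was 9.66%, against 3.85% of the host genes. In the direction of SNHG15 it was 5.29% of all genes, and 4.36% of all genes were called higher, against 0 of the host genes. limma-voom and DESeq2 also called SNHG15 (adjusted p = 0.0388 and 0.0187) and no other host gene. The median log2 fold change of the 26 was -0.002, beside 0.002 over all genes tested, with 13 above and 13 below 0, where 50.3% of all genes tested were above 0. Their differences ran from -0.53 for SNHG25 to 0.27 for SNHG5, and with each library left out in turn these were -0.92 to -0.23 and 0.16 to 0.40. Leaving out a single library moved the log2 fold change by over 1.5 times, up or down, for 23 of the 26, all but SNHG15, SNHG1 and DANCR. This ratio runs high for values near 0, as for TUG1, at -0.01 and from -0.03 to 0.02 with a library left out. The share of all genes that moved as far was not counted. The median size of the difference was 0.11, beside 0.13 over all genes tested. The 33 genes together took 0.156% to 0.161% of the counts of the siALDOA libraries and 0.139% to 0.159% of those of the siControl libraries.

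For most host genes the data also bounded how large a difference could be. The 95% interval of the log2 fold change lay within -0.5 to 0.5 for 21 of the 26 and within -1 to 1 for 25. SNHG25 was the exception to the wider bound, with 14 to 43 counts per library and an interval from -1.44 to 0.38. The interval excluded 0 for 4 genes, namely SNHG15 on the lower side and SNHG7, GAS5 and SNHG5 on the higher side. At an unadjusted p under 0.05 these were 4 of 26 (15.4%), where all genes tested gave 23.6%. The 3 higher ones made up 11.5% of the host genes, beside 11.3% of all genes on that side. At the unadjusted p of 0.01 that the study used, SNHG15 was the 1 host gene called, beside 12.5% of all genes. The siALDOA and siControl values did not overlap for 5 of 26 host genes (19.2%), where this held for 27.7% of all genes tested.

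**Figure D1:**
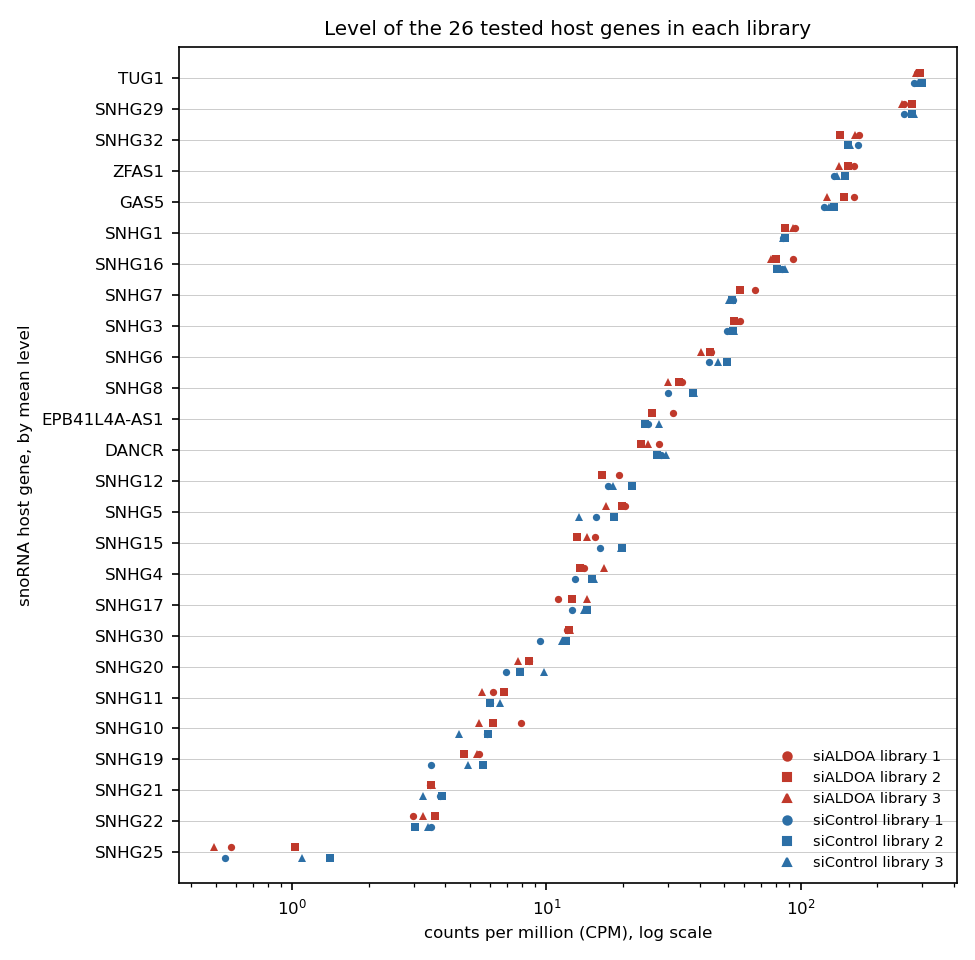
Level of each of the 26 tested host genes in CPM on a log axis, with a red symbol for each siALDOA library and a blue symbol for each siControl library. The genes spanned from 0.858 CPM for SNHG25 to 288 CPM for TUG1 on average, and for most of them the red and blue symbols lay over each other.

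**Figure D2:**
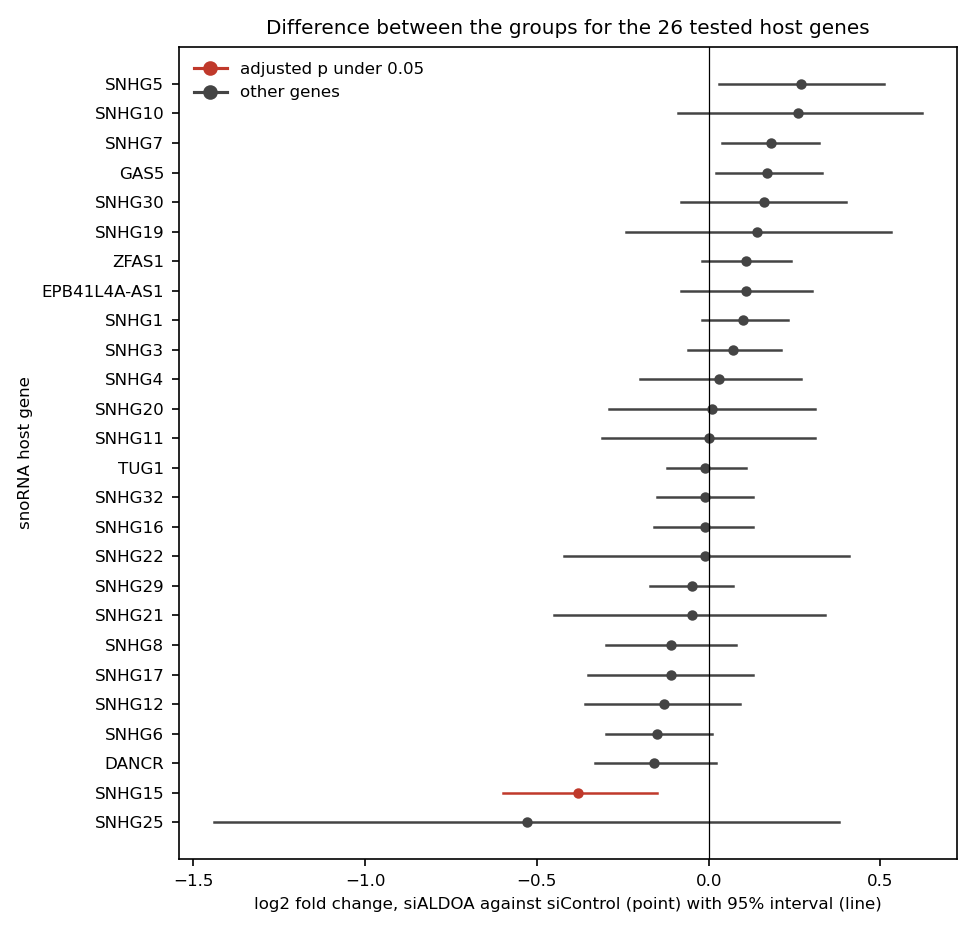
Log2 fold change of siALDOA against siControl for the 26 tested host genes (points) with the 95% interval (lines). SNHG15, in red, was the gene past the adjusted p threshold, and the intervals of 22 genes included 0.

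SNHG15 is the host of the H/ACA box snoRNA SNORA9 and lies on chromosome 7 of hg38 (chr7:44983019-44986961, minus strand, ENSG00000232956). It was at 15.5, 13.2 and 14.4 CPM in the siALDOA libraries and at 16.3, 19.9 and 19.7 CPM in the siControl libraries. The groups did not overlap, but the highest siALDOA value and the lowest siControl value were close. The mean was 14.4 ± 1.15 CPM with siALDOA and 18.6 ± 2.06 CPM with siControl (SD, n = 3). This is a log2 fold change of -0.38 (SE 0.11, 95% interval -0.60 to -0.15, adjusted p = 0.0304 in edgeR's quasi-likelihood test), so that the level fell by 22.9%. The level rests on 397 to 432 counts per siALDOA library and 507 to 650 per siControl library.

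The fall of SNHG15 passed the threshold in 9 of 14 alternative analyses, with adjusted p from 0.00862 to 0.140. The call was lost with siALDOA replicate 2 left out (log2 fold change -0.32, adjusted p = 0.126) or siALDOA replicate 3 (-0.38, adjusted p = 0.0708). It was also lost with siControl replicate 2 left out (-0.33, adjusted p = 0.138) or siControl replicate 3 (-0.33, adjusted p = 0.140). Scaling by the library totals alone gave a log2 fold change of -0.31 (adjusted p = 0.113). With ribosomal RNA genes left out of the counts the log2 fold change was again -0.38 (adjusted p = 0.0278). The direction was the same in all 14.

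The SNORA9 row was thin, with 7, 18 and 9 counts in the siALDOA libraries against 17, 19 and 21 in the siControl libraries. Its log2 fold change was -0.61, but the interval of -1.60 to 0.38 included 0 (adjusted p = 0.477). It was -1.07 without siALDOA replicate 2 and -0.39 without siALDOA replicate 1. All 133 bases of this snoRNA lie in an annotated exon of SNHG15, so a read from it could be counted for the host, for the snoRNA or for both. It is printed here because it is the snoRNA of the gene that passed the test, at chr7:44985378-44985510 on the minus strand, 5′ to 3′.
SNORA9: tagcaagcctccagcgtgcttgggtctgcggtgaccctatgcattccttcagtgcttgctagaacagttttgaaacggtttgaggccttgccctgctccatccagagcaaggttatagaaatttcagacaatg

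GAS5 hosts more snoRNAs than any other tested host gene, 10 of the C/D box class and SNORA103, and is known for building up in cells whose growth stops. It lies at chr1:173858559-173868882 on the minus strand (ENSG00000234741). GAS5 was at 162, 148 and 127 CPM with siALDOA and at 124, 135 and 129 CPM with siControl. Replicates 1 and 2 of siALDOA lay above all siControl values, and replicate 3 lay among them. The log2 fold change was 0.17 (SE 0.073, interval 0.02 to 0.33) and did not pass the threshold (adjusted p = 0.146). Without siALDOA replicate 3 it was 0.26 and passed (adjusted p = 0.0258). Over the 14 alternatives it ranged from 0.09 to 0.26 and passed in 1.

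The snoRNAs inside GAS5 had rows of their own in the tables, and 9 of the 11 were tested. Of these, 5 sequences are printed here as the rows with the largest differences and, for SNORD47, a row near 0. They were read on the minus strand of hg38 at the RefSeq positions, with SNORD44 at chr1:173865968-173866028, SNORD80 at chr1:173864833-173864903, SNORD76 at chr1:173866635-173866715, SNORD77 at chr1:173866301-173866370 and SNORD47 at chr1:173864369-173864445. Capitals mark the C box letters TGATGA within the first 15 bases and the D box letters CTGA within the last 15, searched as exact letters on the host's strand, and no C box letters were found in this way in SNORD77 and SNORD47.
SNORD44: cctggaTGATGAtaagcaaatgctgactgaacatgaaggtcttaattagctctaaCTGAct
SNORD80: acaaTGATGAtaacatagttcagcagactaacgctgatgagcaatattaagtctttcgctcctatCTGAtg
SNORD76: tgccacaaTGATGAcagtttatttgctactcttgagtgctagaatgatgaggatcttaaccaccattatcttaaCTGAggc
SNORD77: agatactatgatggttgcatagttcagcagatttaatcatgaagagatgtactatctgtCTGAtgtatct
SNORD47: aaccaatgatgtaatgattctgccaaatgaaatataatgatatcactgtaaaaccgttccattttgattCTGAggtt
The D box letters were found in 10 of the 10 C/D box snoRNAs of GAS5 and the exact C box letters in 6. Over all 37 C/D box sequences read from the host genes the counts were 34 and 22, and over the 26 sequences of the other classes they were 1 and 0.

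SNORD44 rose with siALDOA and was the 1 snoRNA row inside any host gene that passed the threshold. This was 1 of 39 such rows tested (2.56%), beside 9.66% of all genes tested. It was at 26.4, 25.4 and 21.2 CPM with siALDOA and at 19.9, 18.9 and 19.1 CPM with siControl, so the groups did not overlap. The log2 fold change was 0.33 (SE 0.096, interval 0.13 to 0.53, adjusted p = 0.0322). It stayed past the threshold in 10 of 14 alternatives, with values from 0.27 to 0.42. The call was lost with siALDOA replicate 1 (adjusted p = 0.108) or 2 (0.116) left out, and with siControl replicate 2 (0.114) or 3 (0.109) left out.

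SNORD80 was at 9.48, 7.75 and 6.72 CPM with siALDOA and at 5.93, 6.55 and 5.37 CPM with siControl. The groups did not overlap, and the log2 fold change was 0.42 (SE 0.15, adjusted p = 0.0925). SNORD77 was at 41.6, 31.0 and 27.3 CPM with siALDOA and at 29.2, 27.8 and 27.1 CPM with siControl. Here replicate 1 of siALDOA stood far above the rest, and the log2 fold change was 0.25 (SE 0.11, adjusted p = 0.180). Without that library it was 0.06 (adjusted p = 0.756), and without replicate 3 of siALDOA 0.37 (adjusted p = 0.0388). SNORD76 rested on 24 to 73 counts per library, at 1.37, 2.43 and 1.13 CPM against 0.994, 0.786 and 0.789 CPM, with a log2 fold change of 0.94 (SE 0.36, adjusted p = 0.112) that was 0.54 without siALDOA replicate 2. SNORD81, SNORD79, SNORD78 and SNORD47 had log2 fold changes of 0.17, 0.07, 0.06 and -0.02. SNORA103, with 4 to 14 counts per library, had -0.23. The median over the 9 rows was 0.168, with 7 above and 2 below 0, beside 0.17 for GAS5 itself.

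The GAS5 rows moved together from library to library within the siALDOA group. Replicate 3 was the lowest of the 3 siALDOA libraries in 9 of 9 snoRNA rows and in GAS5 itself, where this held for 32.2% of all genes tested. Replicate 1 was the highest in 6 of the 9. All bases of these snoRNAs lie within annotated exons of GAS5 transcripts that keep introns, so the same reads may stand behind the host and its snoRNA rows. Whether they share reads was not tested, and finished snoRNA and unspliced host RNA cannot be told apart in them.

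**Figure D3:**
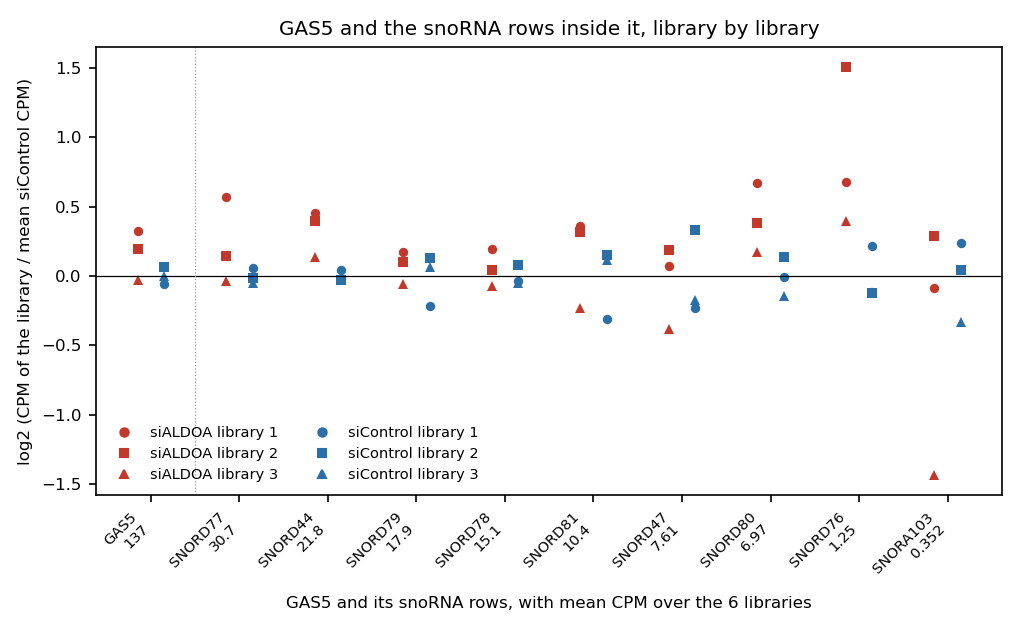
GAS5 and its 9 tested snoRNA rows, each library as the log2 ratio of its CPM to the mean siControl CPM, ordered by mean CPM, which is given under each name. Replicate 3 of siALDOA (red triangles) was the lowest siALDOA library in every row, and SNORD44 and SNORD80 were among the rows whose groups did not overlap.

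SNHG7 and SNHG5 had the other intervals above 0. SNHG7, host of SNORA17A and SNORA17B, was at 65.9, 57.5 and 57.9 CPM with siALDOA and at 54.1, 53.7 and 52.3 CPM with siControl. The groups did not overlap, with a log2 fold change of 0.18 (SE 0.069, interval 0.04 to 0.32), but the adjusted p was 0.109 and ranged from 0.0613 to 0.319 over the alternatives. Without siALDOA replicate 1 the log2 fold change was 0.11. SNHG5, host of SNORD50A and SNORD50B, was at 20.3, 19.9 and 17.1 CPM against 15.6, 18.5 and 13.4 CPM. Replicate 3 of siALDOA lay below replicate 2 of siControl, and the log2 fold change was 0.27 (SE 0.11, interval 0.03 to 0.51, adjusted p = 0.152). It was 0.16 (adjusted p = 0.518) without siControl replicate 3 and 0.40 (adjusted p = 0.0607) without siControl replicate 2.

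In SNHG1, SNHG3 and SNHG30 the siALDOA values all lay above the siControl values, but none passed the threshold. SNHG1, host of 8 C/D box snoRNAs, was at 95.3, 87.0 and 93.2 CPM with siALDOA and at 85.0, 86.4 and 85.3 CPM with siControl, a log2 fold change of 0.10 (SE 0.060, adjusted p = 0.331). SNHG3 had a log2 fold change of 0.07 (adjusted p = 0.560) and SNHG30 of 0.16 (adjusted p = 0.443), and in both the lowest siALDOA value was next to the highest siControl value.

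The 5 host genes with the highest CPM were TUG1, SNHG29, SNHG32, ZFAS1 and GAS5. TUG1, first described in the retina as a long noncoding RNA and listed as protein-coding by GENCODE, was at 286, 294 and 284 CPM with siALDOA and at 278, 299 and 289 CPM with siControl. The siALDOA values lay inside the siControl range, and the log2 fold change of -0.01 had an interval from -0.12 to 0.11 (adjusted p = 0.964). SNHG29, host of SNORD49A, SNORD49B and SNORD65, was at 256, 273 and 251 CPM against 255, 274 and 278 CPM. Its log2 fold change was -0.05 (interval -0.17 to 0.07, adjusted p = 0.674).

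SNHG32, host of SNORD48 and SNORD52, was at 169, 143 and 163 CPM with siALDOA and at 168, 153 and 157 CPM with siControl. The groups overlapped fully, with a log2 fold change of -0.01 (interval -0.15 to 0.13, adjusted p = 0.949). ZFAS1, host of SNORD12, SNORD12B and SNORD12C, was at 162, 154 and 142 CPM against 135, 150 and 139 CPM. The siALDOA values reached higher but overlapped the siControl values, and the log2 fold change was 0.11 (interval -0.02 to 0.24, adjusted p = 0.317). For TUG1, SNHG29 and SNHG32 the sign turned with scaling by library totals alone, to 0.07, 0.02 and 0.06, a scaling that moved the median of all genes to 0.075.

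These levels are not per length. Divided by the length of the canonical transcript, the order of the mean level changed to SNHG29 with 598 CPM per kb, GAS5 with 178, SNHG16 with 168, SNHG32 with 151 and SNHG1 with 76.3, while TUG1, a transcript of 7474 bases, had 38.5. The transcript each cell line uses may be longer or shorter than the canonical one.

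DANCR, known for keeping progenitor cells undifferentiated, hosts SNORA26. It was at 27.6, 23.6 and 25.0 CPM with siALDOA and at 28.3, 27.1 and 29.4 CPM with siControl. Only replicate 1 of siALDOA reached the siControl values, and the log2 fold change was -0.16 (SE 0.085, interval -0.33 to 0.02, adjusted p = 0.281). EPB41L4A-AS1, host of SNORA13, was at 31.5, 26.0 and 26.0 CPM against 25.0, 24.5 and 27.7 CPM. Its replicate 1 of siALDOA stood above the others, and the log2 fold change was 0.11 (SE 0.092, interval -0.08 to 0.30, adjusted p = 0.519), and 0.01 (adjusted p = 0.960) without that library. SNHG6, host of SNORD87, was at 44.2, 44.1 and 40.5 CPM against 43.6, 51.5 and 47.5 CPM, a log2 fold change of -0.15 (interval -0.30 to 0.01, adjusted p = 0.243).

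The other tested genes were SNHG4, SNHG8, SNHG10, SNHG11, SNHG12, SNHG16, SNHG17, SNHG19, SNHG20, SNHG21, SNHG22 and SNHG25. Except for SNHG25 their log2 fold changes lay between -0.13 (SNHG12) and 0.26 (SNHG10), and their groups overlapped. SNHG10, with 150 to 221 counts per library, was at 7.94, 6.16 and 5.42 CPM with siALDOA and 5.84, 5.87 and 4.55 CPM with siControl (SE 0.17, adjusted p = 0.382). Its log2 fold change was 0.10 (adjusted p = 0.805) without siALDOA replicate 1 and 0.15 without siControl replicate 3. SNHG16, host of SNORD1A, SNORD1B and SNORD1C, had the highest CPM of them, at 92.9, 80.0 and 76.7 CPM against 84.3, 81.0 and 86.7 CPM, with a log2 fold change of -0.01.

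The remaining 7 genes had too few counts for a test. SNHG18 and SNHG27 were listed at 0 in every library. SNHG14, the imprinted host of the SNORD115 and SNORD116 clusters, held 1 count in siALDOA replicate 1, 3 counts in siControl replicate 3 and 0 elsewhere. All 83 snoRNA rows inside it were listed at 0. SNHG26 held 5 counts in siControl replicate 2 and 0 elsewhere, and SNHG31 held 0 to 3 counts per library. SNHG9 held 3, 7 and 6 counts in the siALDOA libraries against 5, 8 and 3. SNHG28 held 3, 3 and 7 counts against 12, 6 and 2.

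Within the siALDOA group the host genes leaned on the same library. Replicate 1 was the highest of the 3 siALDOA libraries for 17 of the 26 tested genes (65.4%), beside 37.6% of all genes tested, and replicate 3 was the lowest for 13. Within the siControl group replicate 1 was the lowest for 16 of 26 (61.5%), beside 36.5% of all genes. Replicate 1 held the most ribosomal RNA counts in both groups, 13.1% with siALDOA and 17.4% with siControl, and the part of that in these values was not tested. Among the 19 host genes at 10 CPM or more, the median coefficient of variation was 7.95% over the siALDOA libraries and 5.59% over the siControl libraries, beside 6.11% and 5.07% for all genes at this level.

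Outside GAS5, no snoRNA row inside a host gene passed the adjusted threshold in edgeR, limma-voom or DESeq2, and 3 of the 30 tested there had an unadjusted p under 0.05 in edgeR, where 23.6% of all genes tested did. They were SNORD52, SNORD60 and SNORD12. Counting GAS5, 39 of the 148 rows were tested, with 1 called (2.56%), a median log2 fold change of 0.001 and a range from -1.27 to 1.19. Over all 167 tested snoRNA rows of the tables, 3 were called (1.80%). The highest value belonged to SNORD52 inside SNHG32, at 42, 19 and 55 counts in the siALDOA libraries against 23, 11 and 22 (adjusted p = 0.0981). The lowest belonged to SNORD60 inside SNHG19, with 5, 3 and 8 counts against 15, 15 and 13 (adjusted p = 0.172). Both rest on few counts and on bases that also lie in exons of the host. SNORD12 inside ZFAS1 was at 21.4, 19.7 and 16.8 CPM against 16.6, 17.1 and 15.7 CPM, with a log2 fold change of 0.23 (SE 0.10, adjusted p = 0.179) that was 0.15 without siALDOA replicate 1 (adjusted p = 0.446).

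The 8 C/D box snoRNAs inside SNHG1 had log2 fold changes from -0.19 for SNORD26 and SNORD31 to 0.24 for SNORD27. The 3 inside SNHG29 ran from -0.52 for SNORD49A to 0.00 for SNORD49B, where SNORD49A held 16 to 38 counts per library. SNORD48 inside SNHG32, SNORD87 inside SNHG6 and SNORA24 inside SNHG8 were at 5.87 CPM or more in every library and had log2 fold changes of -0.11, -0.11 and 0.02. SNORA17A inside SNHG7 held 9 to 27 counts per library, with a log2 fold change of -0.92 (SE 0.46, adjusted p = 0.229), where SNHG7 had 0.18. The rows of SNORA73A and SNORA73B inside SNHG3 had -0.17 and -0.15, and those of SNORD50A and SNORD50B inside SNHG5 had 0.12 and 0.34, each with an SE of 0.41 or more.

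Host genes often share ground with other genes, and 24 of the 33 had a neighbour in the tables whose exons overlapped theirs or whose start lay within 1000 bases. The strand setting of the counting is not stated, so reads of overlapping genes cannot be told apart, which touches the 16 tested host genes with an exon overlap. Of the 25 neighbours tested and reported here, 2 passed the threshold, ZNFX1 on the same side of 0 as its host gene and SLC3A2 on the other side. Of all genes tested, 9.66% passed it. None of the differences between host and neighbour was tested.

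ZFAS1 shares exon bases with ZNFX1, so their reads cannot be told apart there. It starts 248 bases from ZNFX1, an RNA helicase gene on the opposite strand that is known for antiviral defence. ZNFX1 rose from 253, 269 and 269 CPM with siControl to 331, 389 and 386 CPM with siALDOA (log2 fold change 0.48, SE 0.064, adjusted p = 3.03e-05), while ZFAS1 had 0.11. SNHG1 starts 51 bases from SLC3A2, the heavy chain of amino acid transporters, again on the opposite strand. SLC3A2 fell from 390, 446 and 454 CPM to 316, 349 and 352 CPM (log2 fold change -0.34, SE 0.065, adjusted p = 0.00142), while SNHG1 had 0.10. With scaling by library totals alone SLC3A2 had -0.27 (adjusted p = 0.0589).

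GAS5 shares exon bases with GAS5-AS1, a noncoding gene on the opposite strand. GAS5-AS1 had 0.24 (SE 0.13, adjusted p = 0.284), from 0.14 without siALDOA replicate 1 to 0.36 without siControl replicate 2, and ZBTB37, whose start lies 800 bases from that of GAS5, had 0.00 (adjusted p = 0.978). TUG1 and its neighbour MORC2 had -0.01 and 0.06, and SNHG29 and its neighbour LRRC75A had -0.05 and -0.10. EPB41L4A, the gene that EPB41L4A-AS1 overlaps on the opposite strand, had -0.29 (SE 0.13, adjusted p = 0.165), where EPB41L4A-AS1 had 0.11. SNHG15 had no neighbour by this rule.

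**Figure D4:**
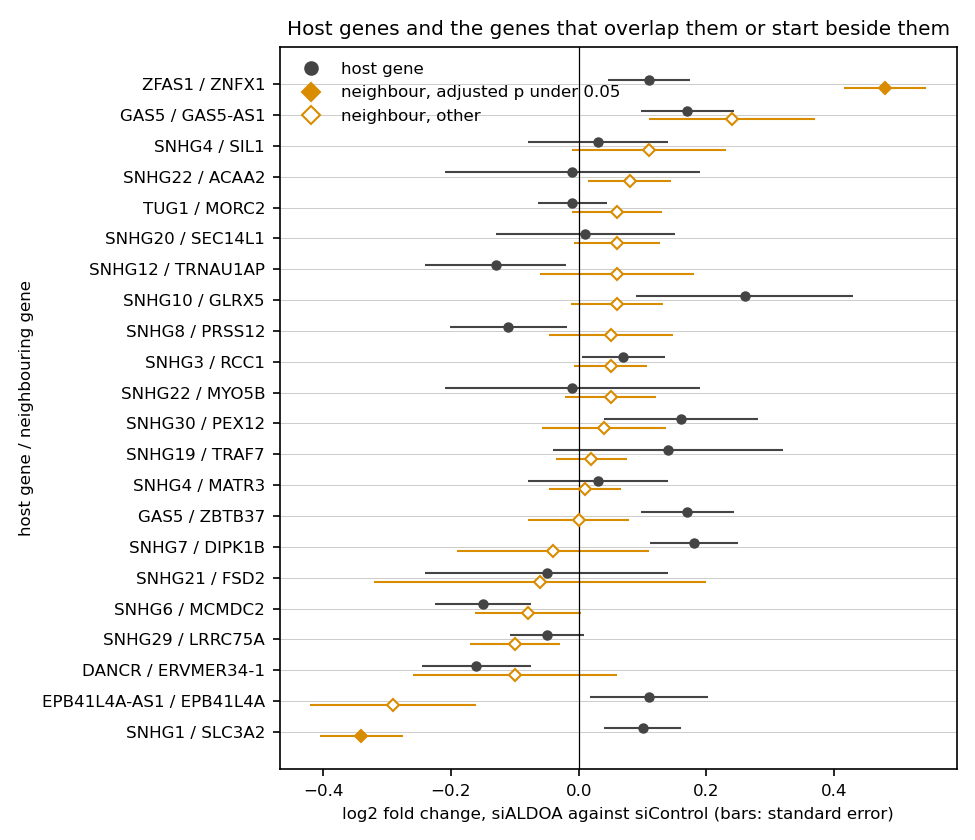
Log2 fold change of siALDOA against siControl, with the standard error as bars, for the 22 pairs in which the host gene (grey circles) and the neighbouring gene (orange diamonds, filled where the adjusted p was under 0.05) were both tested. The filled diamonds are ZNFX1 at 0.48 and SLC3A2 at -0.34.

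The starts of the host genes were searched for a terminal pyrimidine run, here a C followed by at least 4 letters C or T from the first base on, read on the strand of the gene. RefSeq promoters (GRCh38.p14) were matched for 29 of the 33 genes, without SNHG6, SNHG9, SNHG15 and SNHG25. The run stood at the start in 7 of 29 (24.1%), namely SNHG4, SNHG5, SNHG12, SNHG18, SNHG19, SNHG32 and ZFAS1. It stood there in 57.0% of 86 ribosomal protein genes and in 4.07% of all 35116 promoters. Within 10 bases of the start it was found in 58.6% of the host genes and 33.5% of all promoters. In the canonical transcripts of GENCODE, which place some starts elsewhere, the run opened GAS5, SNHG12, SNHG29 and ZFAS1, 4 of 33 (12.1%), beside 70.5% of ribosomal protein genes and 2.75% of all transcripts.

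The starts of 4 tested genes with the run are shown because they are the feature these hosts share with ribosomal protein genes, each with 30 bases before and 30 from the RefSeq start and the run in capitals. They lie at chr6:85678704-85678763 (minus strand), chr1:28581844-28581903 (minus strand), chr6:31834886-31834945 (plus strand) and chr20:49278612-49278671 (plus strand).
SNHG5: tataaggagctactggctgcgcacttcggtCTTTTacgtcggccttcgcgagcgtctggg
SNHG12: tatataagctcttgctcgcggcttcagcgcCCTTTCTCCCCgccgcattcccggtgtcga
SNHG32: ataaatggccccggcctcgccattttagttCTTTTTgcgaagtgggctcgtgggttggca
ZFAS1: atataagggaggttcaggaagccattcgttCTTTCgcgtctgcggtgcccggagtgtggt
The log2 fold changes of these 4 genes were 0.27, -0.13, -0.01 and 0.11, and none passed the threshold. SNHG4 and SNHG19, which also had the run at the start, had 0.03 and 0.14, and SNHG18 was not tested.

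Genes that act on host RNAs or on their snoRNAs were counted against the 9.66% of all genes tested that passed the threshold. Of the snoRNP core proteins, which bind finished snoRNAs, 7 of 8 were tested and 1 fell (14.3%). It was DKC1, the pseudouridine synthase of H/ACA snoRNAs, at 177, 173 and 171 CPM with siALDOA and 190, 214 and 207 CPM with siControl (log2 fold change -0.23, adjusted p = 0.0146). Of 11 assembly factors 1 rose (9.09%), NOLC1, a nucleolar chaperone of snoRNPs, with a log2 fold change of 0.21 (adjusted p = 0.0493). NOLC1 was at 177, 207 and 207 CPM with siALDOA and 162, 181 and 166 CPM with siControl, so the groups overlapped. Of 16 factors of nonsense-mediated decay 1 rose (6.25%), the exonuclease XRN1, also with 0.21 (SE 0.067) and just under the threshold. DKC1 was past the threshold in 9, NOLC1 in 8 and XRN1 in 5 of 14 alternatives, with log2 fold changes from -0.28 to -0.16 for DKC1 and from 0.17 to 0.29 for both NOLC1 and XRN1. DKC1 lost its call without replicate 2 or 3 of either group, NOLC1 without any library but siALDOA replicate 1, and XRN1 without any library. DKC1 also lost its call with library totals only (-0.16, adjusted p = 0.260). With a library left out the adjusted p of DKC1, NOLC1 and XRN1 reached 0.0977, 0.198 and 0.245. None of a list of 6 RNA-binding proteins, among them LARP1, known to bind terminal pyrimidine runs, passed the adjusted threshold in edgeR, and 3 had an unadjusted p under 0.05, where 23.6% of all genes tested did, LARP4B with -0.17 (called by DESeq2, adjusted p = 0.0390), TIA1 with 0.18 and TIAL1 with 0.19. The medians of the 4 lists were -0.094, -0.069, -0.001 and -0.069.

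Ribosomal protein genes and other snoRNA hosts had medians close to 0 too. Of 82 cytosolic ribosomal protein genes tested, RPS9 rose (0.22, adjusted p = 0.0224) and RPS7 fell (-0.29, adjusted p = 0.00303), a share of 2.44%, and the median log2 fold change of the list was -0.025. The call of RPS9 was lost without siALDOA replicate 2, siControl replicate 2 or siControl replicate 3, with adjusted p up to 0.112, and that of RPS7 with library totals only (-0.21, adjusted p = 0.113). Of 137 protein-coding hosts of snoRNAs, 2 rose and 11 fell, with a median of -0.027. With library totals only 3 fell, where 7.68% of all genes were called in either direction. With a library left out 0 to 1 rose, with 0 without siALDOA replicate 2 or siControl replicate 2. In those settings 6 to 12 fell, with 6 without siControl replicate 3 and 7 without siALDOA replicate 2 or 3. The called share of all genes there was 5.39% to 9.17%. In the main test the share of these hosts in both directions together, 9.49%, was near the 9.66% of all genes tested. Falls made up most of it, where 4.36% of all genes rose and 5.29% fell. The largest of the falls among the 5 with the smallest p was that of ZBED3, with -0.57 (SE 0.092, adjusted p = 2.94e-04). The smallest p belonged to IARS1, a cytosolic isoleucyl-tRNA synthetase, with -0.37 (SE 0.055, adjusted p = 1.31e-04). Of 737 other long noncoding genes by symbol, 17 rose and 8 fell (3.39%), with a median of 0.084. Among these, RNF213-AS1 had 0.83 (adjusted p = 2.66e-08), and OIP5-AS1, at 127 to 177 CPM, had -0.30 (adjusted p = 0.00353, and 0.0725 with library totals only). Overlap with genes on the opposite strand was not checked for this list, and the strand setting is not stated. With siControl replicate 2 left out the list held 8 genes called higher, and with library totals only 30.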

How the data were processed

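RNA-Seq of 3 siALDOA and 3 siControl samples of HT29 cells was analysed. Reads had been mapped by the authors with TopHat2 (hg38) and tallied by gfold, and the deposited files hold unnormalized counts for each symbol, 1 file per library. Which annotation and strand setting they used, and how reads with multiple hits were treated, are not given in the sources used here.

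Counts were tested in R 4.3.3 with edgeR 4.0.16 (filterByExpr on the groups, TMM, quasi-likelihood F-test, no covariate), with Benjamini-Hochberg adjustment over all 15307 genes tested and a threshold of 0.05. CPM used the TMM factors. SE was taken as the size of the log2 fold change over the root of F. Totals of 27277538 to 33237914 counts put 1 CPM at about 30 counts. The labels call the samples biological replicates, and p-values measure the spread between them. Positions and host exons came from GENCODE release 44, and snoRNA positions and promoters from RefSeq. snoRNA sequences were read from hg38. Figures were drawn with matplotlib 3.10.9.

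A single neighbouring gene is not reported here. The host genes and the comparison lists were chosen with earlier results of these data known. Full values were given for host genes past the threshold, the 5 with the highest mean CPM, the 5 not named SNHG and those whose call changed under an alternative. Alternatives were limma-voom (limma 3.58.1), DESeq2 1.42.0, library totals only, upper quartile normalization, no ribosomal RNA genes, no filter, a minimum of 10 counts per library, blocking on the replicate number, and leaving out each library.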

Additional observations from a re-analysis of the deposited data

How the results depend on the processing

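Over 14 alternatives SNHG15, DANCR, SNHG6, SNHG8, SNHG12, SNHG17 and SNHG25 were lower with siALDOA in each. GAS5, SNHG1, SNHG3, SNHG5, SNHG7, SNHG10, SNHG30, ZFAS1, EPB41L4A-AS1 and SNORD44 were higher in each, while calls depended on single libraries. With each library left out in turn, 0 to 1 host genes were called higher, 0 to 1 lower and 0 to 2 snoRNA rows higher. The called share of all genes with a library left out was 5.39% to 9.17%. The siALDOA and siControl values did not overlap for 5 to 10 host genes, for which fewer samples make separation easier. How many of all genes did not overlap with a library left out was not counted, so this range cannot be set beside them. The host gene called higher was GAS5 without siALDOA replicate 3. In the same setting SNORD44 and SNORD77 were the snoRNA rows called, and without siALDOA replicate 2 it was SNORD52 (1.54, adjusted p = 0.0362) in place of SNORD44. With library totals only, 0 host genes were called lower and 2 snoRNA rows higher, SNORD44 and SNORD80 (0.50, adjusted p = 0.0475), and the median of the host genes was 0.07. With no filter on low counts, 2 snoRNA rows were called higher, SNORD44 and SNORD52 (adjusted p = 0.0415). The cause of these shifts was not tested. Signs turned for values near 0. With library totals only TUG1 was at 0.07, SNHG29 at 0.02, SNHG32 at 0.06, SNHG16 at 0.05, SNHG21 at 0.02 and SNHG22 at 0.07. TUG1 was at 0.00 with upper quartile normalization, and SNHG11 was at 0.00 with limma-voom, no filter on low counts or a replicate block. With a library left out TUG1 ranged from -0.03 to 0.02, SNHG32 from -0.06 to 0.06, SNHG11 from -0.07 to 0.07, SNHG16 from -0.10 to 0.04, SNHG19 from -0.03 to 0.30, SNHG20 from -0.09 to 0.15, SNHG22 from -0.09 to 0.06 and SNHG4 from -0.07 to 0.10. Counts of the comparison lists moved too. With library totals only, 0 snoRNP core proteins were called lower, 1 RNA-binding protein higher (TIAL1), 2 ribosomal protein genes higher and 0 lower, 3 protein-coding hosts lower, 30 other noncoding genes higher and 5 lower, and 1 neighbour (ZNFX1). With limma-voom, 0 assembly and 0 decay factors were called higher and 2 ribosomal protein genes lower. With DESeq2, 1 RNA-binding protein and 3 ribosomal protein genes were called lower. Without ribosomal RNA genes or with no filter, 0 decay factors were called higher and 2 ribosomal protein genes lower, and with no filter 30 other noncoding genes higher. With a library left out, these counts ranged from 0 to 1 for core proteins lower, 0 to 1 for assembly factors higher, 0 to 0 for decay factors higher and 0 to 1 for those lower, 0 to 1 for RNA-binding proteins in each direction, 0 to 1 and 1 to 2 for ribosomal protein genes higher and lower, 0 to 1 and 6 to 12 for protein-coding hosts, and 8 to 18 and 5 to 9 for other noncoding genes. The replicate numbers were not used as pairs in the main test, since the correlations of same-numbered deviations were 0.0348, 0.0274 and 0.0262, all under 0.1. Each siALDOA library still correlated best with its own number, so these values do not settle whether the samples were paired. With a replicate block SNHG15 was at -0.37 (adjusted p = 0.0161) and SNORD44 at 0.33 (adjusted p = 0.0134), and 2162 genes were called in place of 1478. The block added 1 assembly factor lower (RUVBL1), and its counts were 2 RNA-binding proteins higher and 1 lower, 2 ribosomal protein genes higher and 4 lower, 4 protein-coding hosts higher and 18 lower, and 28 other noncoding genes higher. Without siControl replicate 2 or 3, 849 and 834 genes were called. The 7 host genes that were not tested and the snoRNA rows with few counts allow no statement on a difference.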
